A study of Arabidopsis thaliana with 6 samples.

Results

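The 10 genes described here make or control indole glucosinolates and camalexin in Arabidopsis thaliana. They were taken by locus identifier from a set list, and all 10 were found among the 33602 loci of the deposited table. The regulators are MYB34 (AT5G60890), MYB51 (AT1G18570) and MYB122 (AT1G74080). The enzymes of the shared and the indole glucosinolate steps, all cytochrome P450s, are CYP79B2 (AT4G39950), CYP79B3 (AT2G22330), CYP83B1 (AT4G31500) and CYP81F2 (AT5G57220). The camalexin enzymes, also P450s, are PAD3 (AT3G26830), CYP71A13 (AT2G30770) and CYP71A12 (AT2G30750). RNA was sequenced from whole seedlings of the Col-0 wild type (3 libraries) and of cfm6-1, a line in the Col-0 background labelled CFM6-/- (3 libraries). The seedlings were 14 days old, and both genotypes grew at 22 °C on medium with 1% sucrose, in long days (16 h light, 8 h dark). The series title links CFM6, a CRM domain protein, to splicing of a group II intron in the mitochondrial gene nad5. cfm6-1 is 1 line, the labels do not give the kind of mutation, and no complemented line was analysed here.

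Indole glucosinolates and camalexin are defence compounds that both start from tryptophan. CYP79B2 and CYP79B3 turn tryptophan into indole-3-acetaldoxime. CYP83B1 commits this aldoxime to indole glucosinolates, which are stored and cleaved by myrosinases after damage, and CYP81F2 then hydroxylates the indole ring, a step needed for the glucosinolates that the myrosinase PEN2 uses in immunity. CYP71A12 and CYP71A13 instead turn the aldoxime into indole-3-acetonitrile, and PAD3 (CYP71B15) completes camalexin, the main phytoalexin of Arabidopsis. MYB34, MYB51 and MYB122 are related R2R3-type transcription factors that switch on indole glucosinolate genes. MYB51 is known to act mainly in shoots and MYB34 mainly in roots.

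Levels are given in RPKM, which scales a gene's reads by its length and by the reads of the library. Depth, read from the steps between low values, was 47.3 to 52.7 M reads per library (M, 1e6). AT4G13070, taken as CFM6, was at 3.85, 3.69 and 4.10 RPKM in wild type against 1.32, 1.23 and 1.32 in cfm6-1, 33.2% of wild type by mean (limma adjusted p = 1.2e-05). The labelled tissue holds root and shoot, and markers of both were present. The 5 shoot markers summed to between 9069 and 10420 RPKM in wild type and between 5327 and 5933 in cfm6-1. Of these, 4 of 4 that could be tested were lower (limma adjusted p below 0.05). RBCS1A (6030 against 3950 RPKM by mean) and CAB3 (3570 against 1650), both photosynthesis genes, made up nearly all of the shoot sum. GL1 was too low to be tested, at 0.81 RPKM by mean in both genotypes. Of 8 testable root markers 2 were higher and 4 lower by the same rule. Both marker counts are to be read beside all 20047 loci tested, of which 38.6% were higher and 30.2% lower. WOX5, 1 of the 2 higher root markers, was at 0.21 to 0.42 RPKM in wild type. It passed the filter on low values only through cfm6-1, so it had to differ. The 9 root markers summed to between 1686 and 1892 RPKM in wild type and between 2282 and 2717 in cfm6-1. Nearly all of that sum was PYK10, and without it the other 8 summed to between 72.9 and 82.7 and between 47.6 and 53.4. The 3 seed markers reached at most 0.71 RPKM, with LEC1, an embryo regulator, at 0 in all libraries, and the 3 flower markers summed to at most 1.84. The part that a different share of shoot and root tissue may have in the results below was not tested.

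Of the 10 genes, 8 were higher in cfm6-1 and none was lower, at an adjusted p below 0.05 (limma on log2(RPKM + 1), Benjamini-Hochberg over all 20047 loci tested). Of all loci tested, 68.8% were called by the same rule, 38.6% higher and 30.2% lower. At an unadjusted p below 0.05 the counts were also 8 and 0, and limma-voom on rebuilt reads gave 8 and 0. All 10 passed the filter of at least 1 RPKM in at least 3 libraries. The median log2 change of the 10 was 0.75, against 0.05 over all loci tested, and 3 of the 8 had a mean at least 2-fold higher, as did 9% of all loci tested. The cfm6-1 libraries lay wholly above wild type for 8 genes, wholly below for MYB122 and overlapped for CYP71A12; over all loci tested the genotypes lay apart for 74.3%, with cfm6-1 above for 41.5% and below for 32.8%. In whole seedlings, a change in the number of cells of a type and a change in RNA per cell cannot be told apart.

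**Figure D1:**
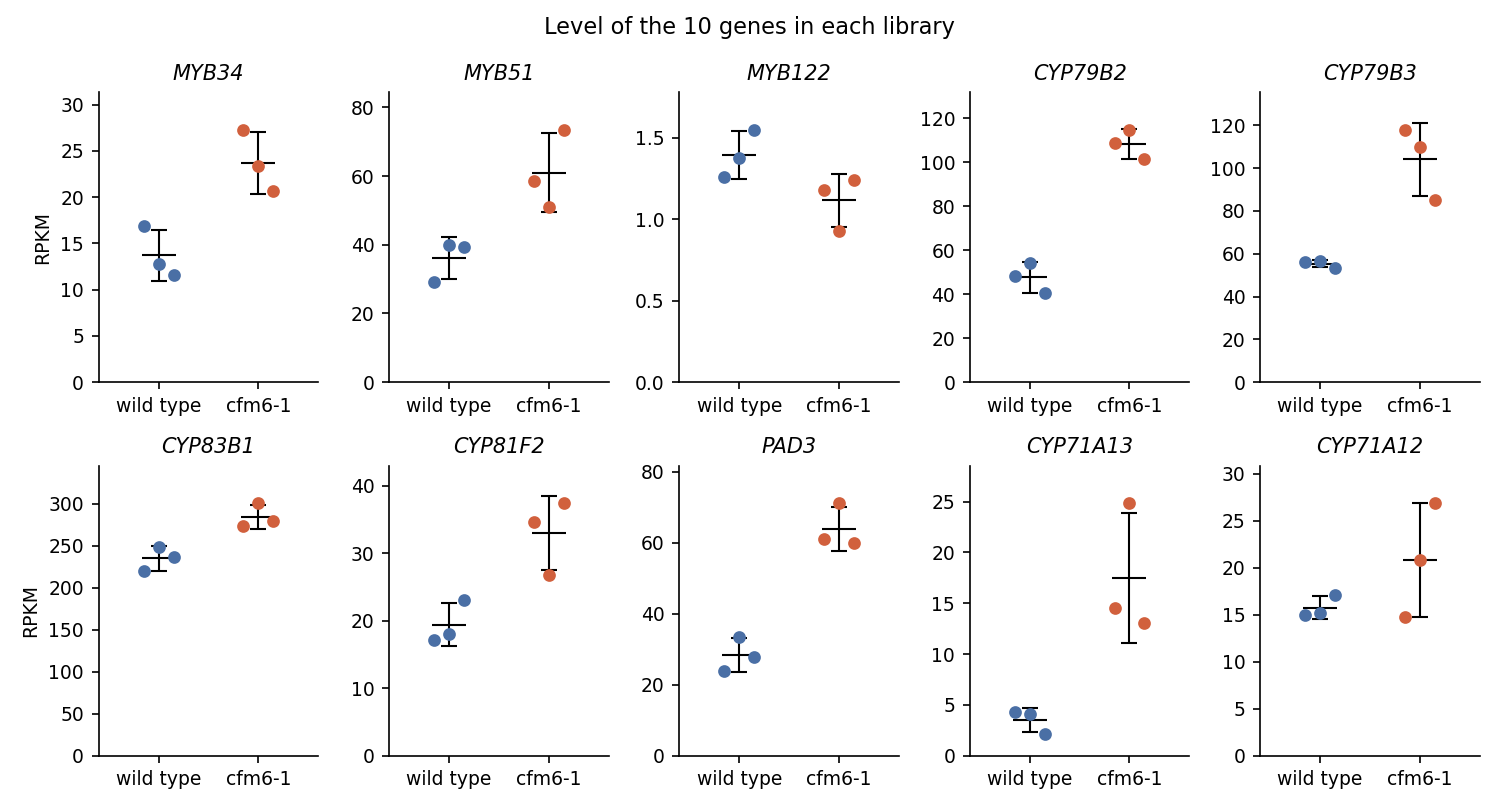
RPKM of each of the 10 genes (vertical axes start at 0) in the 3 wild type libraries (blue) and the 3 cfm6-1 libraries (orange). Points are libraries, the horizontal mark is the mean and the bars are 1 SD; in each genotype replicates 1 to 3 run from left to right. In 8 panels every orange point lies above every blue point, in MYB122 every orange point lies below, and in CYP71A12 the points overlap.

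MYB34 was at 16.84, 12.79 and 11.54 RPKM in the wild type libraries, in replicate order, against 27.28, 23.33 and 20.62 in those of cfm6-1. The lowest cfm6-1 library lay above the highest wild type library. MYB34 rose 1.73-fold by mean RPKM and by 0.76 on the log2(RPKM + 1) scale (SE 0.15, limma adjusted p = 0.00276). MYB51 was at 29.06, 39.79 and 39.41 RPKM in wild type against 58.53, 51.12 and 73.45 in cfm6-1, again with no overlap. It rose 1.69-fold, by 0.74 on the log2 scale (SE 0.16, limma adjusted p = 0.0047).

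MYB122, the third regulator, was near the detection filter. It was at 1.26, 1.38 and 1.55 RPKM in wild type against 1.18, 0.93 and 1.24 in cfm6-1, which stand for 290 and 234 reads in all. The cfm6-1 values lay below the wild type values, the nearest of them by 0.02 RPKM (1.24 against 1.26), and the difference did not pass the test (log2 change -0.18, SE 0.09, limma adjusted p = 0.105). The RPKM of the 3 regulators summed to 47.16, 53.96 and 52.5 in wild type against 86.99, 75.38 and 95.31 in cfm6-1 (1.68-fold by mean; two-sided exact permutation p = 0.1, the lowest value possible with 3 libraries a group). MYB51 made up most of that sum in both genotypes.

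CYP79B2 and CYP79B3 encode the paired enzymes at the branch point, and both rose. CYP79B2 was at 48.38, 54.37 and 40.37 RPKM in wild type against 108.79, 114.71 and 101.43 in cfm6-1. Every cfm6-1 library was far above every wild type library, and the mean rose 2.27-fold (log2 change 1.17, SE 0.11, limma adjusted p = 6.81e-05). CYP79B3 was at 56.34, 56.56 and 53.40 RPKM in wild type, with the lowest coefficient of variation of the 10 genes there (3.18%), and at 117.91, 109.68 and 85.10 in cfm6-1. It rose 1.88-fold (log2 change 0.89, SE 0.11, limma adjusted p = 0.000361), with cfm6-1 replicate 3 the lowest of its group for both genes.

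The coding sequences of CYP79B2 (1746 bases, chromosome 4) and CYP79B3 (1701 bases, chromosome 2) were 78.2% identical, and their longest shared run in the transcripts was 32 bases, shorter than the reads of 100 bases. The 250 bases before their annotated starts (RefSeq, assembly TAIR10.1; CYP79B2 at chr4:18524792-18525041, plus strand; CYP79B3 at chr2:9488163-9488412, plus strand) are shown because these genes moved together from different chromosomes. Capitals mark runs of at least 12 bases found in both windows, which cover 39 bases of each.
CYP79B2: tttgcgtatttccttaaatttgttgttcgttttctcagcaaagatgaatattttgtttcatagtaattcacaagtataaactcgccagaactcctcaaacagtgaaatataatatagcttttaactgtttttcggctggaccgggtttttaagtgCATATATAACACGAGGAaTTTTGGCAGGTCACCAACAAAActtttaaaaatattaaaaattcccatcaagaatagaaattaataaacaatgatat
CYP79B3: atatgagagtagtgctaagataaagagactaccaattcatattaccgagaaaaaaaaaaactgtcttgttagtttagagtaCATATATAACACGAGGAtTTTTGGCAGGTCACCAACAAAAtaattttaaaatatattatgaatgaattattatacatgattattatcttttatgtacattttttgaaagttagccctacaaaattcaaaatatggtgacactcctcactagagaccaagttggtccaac
The shared stretch was interrupted by a single base and lay at different distances from the 2 starts; outside it no run of 12 bases was shared.

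CYP83B1 had the highest level of the 10 genes and the smallest rise among those called. It was at 219.45, 248.87 and 236.45 RPKM in wild type against 273.50, 300.53 and 279.71 in cfm6-1, which do not overlap. The mean rose 1.21-fold (log2 change 0.28, SE 0.07, limma adjusted p = 0.00738). CYP81F2 was at 17.17, 18.04 and 23.06 RPKM in wild type against 34.58, 26.81 and 37.37 in cfm6-1. It rose 1.69-fold (log2 change 0.73, SE 0.15, limma adjusted p = 0.00319), and its lowest cfm6-1 library, replicate 2, lay above the highest wild type library. Summed over CYP79B2, CYP79B3, CYP83B1 and CYP81F2, the level was 357 ± 18.6 RPKM in wild type and 530 ± 24.4 in cfm6-1 (mean ± SD, n = 3; 1.48-fold, exact permutation p = 0.1), with CYP83B1 the largest part.

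PAD3 was at 23.90, 33.31 and 27.75 RPKM in wild type against 60.92, 71.06 and 59.83 in cfm6-1. The groups were far apart and the mean rose 2.26-fold (log2 change 1.16, SE 0.12, limma adjusted p = 0.000137). CYP71A13 was at 4.33, 4.08 and 2.13 RPKM in wild type against 14.49, 24.83 and 13.10 in cfm6-1. It had the largest rise of the 10 genes, 4.97-fold (log2 change 2.02, SE 0.28, limma adjusted p = 0.000503), above 98.4% of all loci tested, and also the widest relative spread, with a coefficient of variation of 34.3% in wild type and 36.7% in cfm6-1.

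CYP71A12, the neighbour and close relative of CYP71A13, was at 14.98, 15.13 and 17.12 RPKM in wild type against 14.75, 20.81 and 26.85 in cfm6-1. The groups overlapped because cfm6-1 replicate 1 lay below all wild type libraries, and the difference did not pass the test (1.32-fold by mean RPKM, log2 change 0.34, SE 0.19, limma adjusted p = 0.139). This rests on single libraries: without cfm6-1 replicate 1 the log2 change was 0.56 and passed (limma adjusted p = 0.0062), and without cfm6-1 replicate 3 it was 0.15 (limma adjusted p = 0.376). Together the 3 camalexin genes summed to 47.6 ± 4.68 RPKM in wild type and 102 ± 13.4 in cfm6-1 (mean ± SD, n = 3; 2.15-fold, exact permutation p = 0.1).

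CYP71A12 and CYP71A13 lie on the minus strand of chromosome 2, 8.54 kb apart. Their coding sequences have the same length, 1494 bases, and were 90.4% identical. Their longest shared run in the transcripts was 59 bases, so no read of 100 bases without errors would match both, and the deposited share of multiply mapped reads was 0 for both, as for all 10 genes. The 250 bases before their starts (RefSeq, TAIR10.1, minus strand; CYP71A12 at chr2:13101372-13101621 and CYP71A13 at chr2:13111989-13112238) are shown because, of these neighbours, CYP71A13 passed the test and CYP71A12 did not. Capitals mark runs of at least 12 bases found in both windows.
CYP71A12: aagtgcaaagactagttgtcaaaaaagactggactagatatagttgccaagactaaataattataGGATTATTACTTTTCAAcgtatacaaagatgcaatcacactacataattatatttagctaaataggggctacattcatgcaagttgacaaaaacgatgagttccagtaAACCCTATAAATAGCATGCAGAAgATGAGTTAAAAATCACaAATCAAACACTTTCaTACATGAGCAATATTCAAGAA
CYP71A13: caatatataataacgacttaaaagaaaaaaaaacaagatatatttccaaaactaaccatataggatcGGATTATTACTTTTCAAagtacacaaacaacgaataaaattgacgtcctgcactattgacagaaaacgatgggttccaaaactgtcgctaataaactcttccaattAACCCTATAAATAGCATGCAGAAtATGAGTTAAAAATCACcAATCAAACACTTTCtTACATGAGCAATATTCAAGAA
The windows aligned with 68.2% identity, and the shared runs covered 91 bases of each, most of them next to the start. The upstream parts of the windows differed more. What the differing bases do was not tested.

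The rise of CYP71A13 is uncertain in size because another gene overlaps it. RefSeq places AT2G30766, on the opposite strand (chr2:13107583-13110480), over 572 of the 2080 bases of CYP71A13, and whether the authors' counting used strand is not given in the sources used here. AT2G30766 was at 4.24, 1.44 and 5.66 RPKM in wild type against 30.87, 37.06 and 50.53 in cfm6-1, so it also rose (log2 change 3.17, SE 0.36, limma adjusted p = 0.000203; share of multiply mapped reads up to 0.591). Within cfm6-1 the order of the libraries differed: AT2G30766 was highest in replicate 3, where CYP71A13 was lowest. CYP71A13 was at 13.10 RPKM there, near the 14.49 of replicate 1. The part of AT2G30766 in the CYP71A13 values was not tested, and an order of 3 libraries does not test it. None of the other 9 genes was overlapped by another annotated gene.

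**Figure D2:**
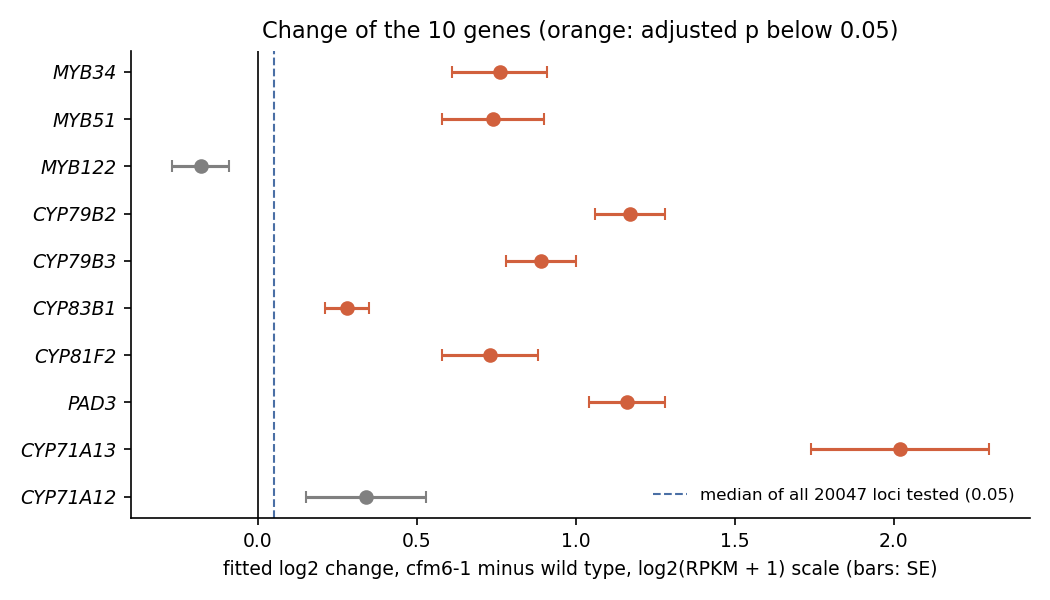
Fitted log2 change, cfm6-1 minus wild type, on the log2(RPKM + 1) scale for each of the 10 genes; bars are 1 SE of the limma fit over 6 libraries, and the dashed line is the median of all loci tested (0.05). Orange points passed an adjusted p below 0.05: they run from 0.28 for CYP83B1 to 2.02 for CYP71A13, while MYB122 (-0.18) and CYP71A12 (0.34), in grey, did not pass.

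Ratios between related genes within a library were compared for 4 pairs, with two-sided exact permutation tests in which 0.1 is the smallest p possible. The ratio of CYP71A13 to CYP71A12 was 0.289, 0.270 and 0.124 in wild type and 0.982, 1.19 and 0.488 in cfm6-1. The groups did not overlap, and the ratio was 3.89-fold higher in cfm6-1 (difference of mean log2 ratios 1.96; SD 0.68 in each genotype; exact permutation p = 0.1, adjusted p = 0.267 over the 4 ratios). The overlap with AT2G30766 bears on this ratio too. In cfm6-1 the 2 genes were near equal in replicates 1 and 2, while CYP71A13 stayed below CYP71A12 in replicate 3.

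The other 3 ratios overlapped between genotypes. CYP79B2 to CYP79B3 was 0.859, 0.961 and 0.756 in wild type and 0.923, 1.05 and 1.19 in cfm6-1 (exact permutation p = 0.2, adjusted p = 0.267). CYP81F2 to CYP83B1 was 0.0782, 0.0725 and 0.0975 in wild type and 0.126, 0.0892 and 0.134 in cfm6-1 (exact permutation p = 0.2, adjusted p = 0.267). MYB51 to MYB34 was 1.73, 3.11 and 3.42 in wild type and 2.15, 2.19 and 3.56 in cfm6-1 (exact permutation p = 1.0), so MYB51 stayed above MYB34 in every library, with a spread between replicates far larger than the difference of mean log2 ratios (-0.04).

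**Figure D3:**
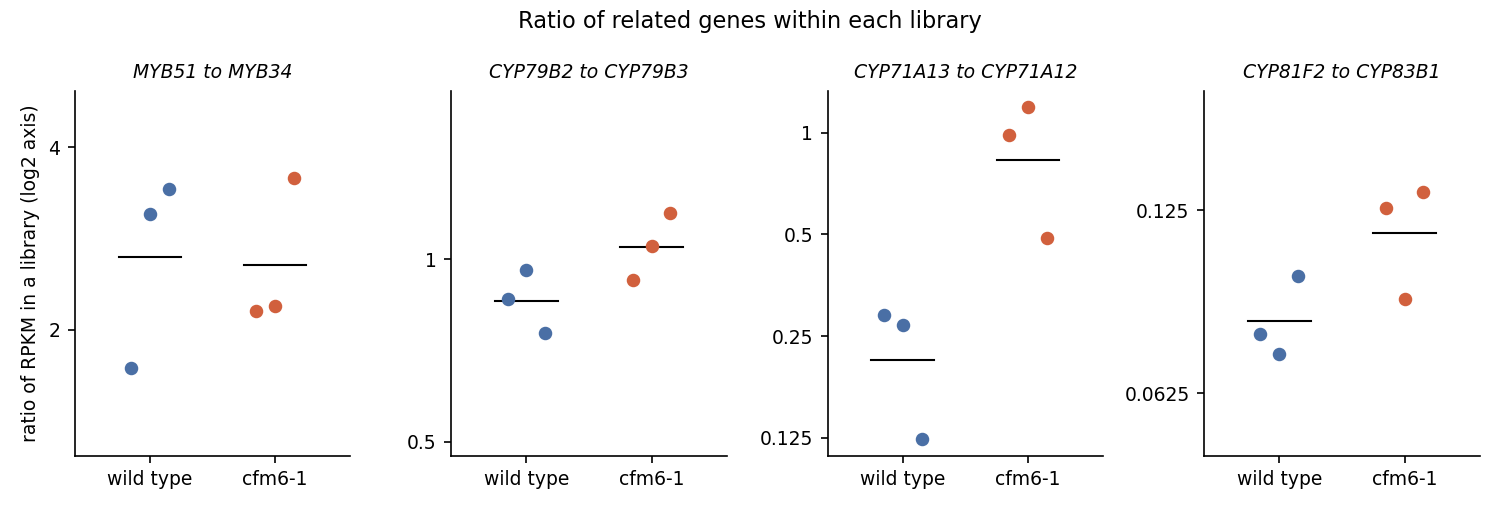
Ratio of the RPKM values of paired genes within each library, on log2 axes, for wild type (blue) and cfm6-1 (orange); points are libraries and lines are geometric means of 3. Only in the panel of CYP71A13 to CYP71A12 are the genotypes apart, with wild type at 0.124 to 0.289 and cfm6-1 at 0.488 to 1.19.

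In wild type the order by mean RPKM was CYP83B1 (235 ± 14.8), CYP79B3 (55.4 ± 1.76), CYP79B2 (47.7 ± 7.02), MYB51 (36.1 ± 6.09), PAD3 (28.3 ± 4.73), CYP81F2 (19.4 ± 3.18), CYP71A12 (15.7 ± 1.19), MYB34 (13.7 ± 2.77), CYP71A13 (3.51 ± 1.20) and MYB122 (1.40 ± 0.146), each with SD and n = 3. Among neighbours in this order, the library values overlapped for CYP79B3 and CYP79B2, for MYB51 and PAD3, and for CYP71A12 and MYB34, and were apart for the other 6 pairs. Some of these pairs were barely apart: the lowest CYP81F2 library was at 17.17 RPKM and the highest CYP71A12 library at 17.12. In cfm6-1 CYP79B2 (108 ± 6.65) and CYP79B3 (104 ± 17.1) overlapped, as did PAD3 (63.9 ± 6.19) and MYB51 (61.0 ± 11.4). CYP81F2 (32.9 ± 5.47), MYB34 (23.7 ± 3.35), CYP71A12 (20.8 ± 6.05) and CYP71A13 (17.5 ± 6.41) each overlapped the next there. CYP83B1 (285 ± 14.2) stood clear at the top and MYB122 (1.12 ± 0.164) clear at the bottom.

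Libraries of a genotype did not rank all genes alike. In cfm6-1, replicate 3 was the highest library for MYB51, MYB122, CYP81F2 and CYP71A12 and the lowest for MYB34, CYP79B2, CYP79B3, PAD3 and CYP71A13. In wild type, replicate 1 was the lowest for MYB51, MYB122, CYP83B1, CYP81F2, PAD3 and CYP71A12 and the highest for MYB34 and CYP71A13. MYB51 and MYB34 thus stood at opposite ends in both of these libraries.

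Genes that supply and use the same intermediates were taken from 7 further lists with 58 loci, of which 57 could be tested. CYP71A18, at 0.06 RPKM or less, could not. Of the 57, 29 were higher and 12 lower in cfm6-1 (limma adjusted p below 0.05), with a median log2 change of 0.31. These are 50.9% and 21.1% of the 57, beside 38.6% and 30.2% of all loci tested, and the lists below are to be read against the same background.

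The 11 genes of tryptophan synthesis, which feeds both branches, held 8 that rose and none that fell, with a median log2 change of 0.69 (limma; 8 and 0 at an unadjusted p below 0.05 and also with limma-voom). TRP1, the phosphoribosyltransferase of the pathway, rose from 47.3 ± 3.42 to 84.7 ± 11.1 RPKM (mean ± SD, n = 3; limma adjusted p = 0.000284). The tryptophan synthase genes TSA1 and TSB1 rose 1.71-fold and 1.73-fold (limma adjusted p = 0.000169 and 0.000233), and TSB1 reached 264 ± 30.6 RPKM. PAI1 and PAI2, isomerases of the pathway, rose 2.10-fold and 1.71-fold, but the deposited multiply mapped shares were 0.398 and 0.427, which leaves their levels uncertain. ASA1, the anthranilate synthase subunit known to set the flux, was at 48.06, 61.70 and 60.99 RPKM in wild type against 70.69, 69.19 and 58.49 in cfm6-1, and did not pass (limma adjusted p = 0.126). ASA2 and PAI3 did not pass either, and these 3 are named after their values were seen.

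Of 7 genes listed for the steps after CYP83B1, which build and finish the glucosinolate core, 6 rose and 1 fell (median log2 change 0.52). GSTF10, a glutathione transferase, rose from 422 ± 14.3 to 786 ± 77.4 RPKM (limma adjusted p = 7.36e-05), and its neighbour GSTF9 rose 1.45-fold, to 1298.59, 1460.41 and 1074.00 RPKM in cfm6-1. GGP1, a peptidase that trims the glutathione adduct, rose 1.57-fold (limma adjusted p = 0.00037). UGT74B1, the glucosyltransferase, rose 1.45-fold, from 50.2 ± 1.57 to 72.6 ± 2.13 RPKM. GSTU13, a glutathione transferase linked to pathogen-triggered indole glucosinolate metabolism, went the other way. It was at 98.36, 103.13 and 98.63 RPKM in wild type against 57.24, 53.44 and 54.56 in cfm6-1 (log2 change -0.85, SE 0.05). The place of all 7 genes among the core steps is that of the list, and the part of each in core synthesis was not tested.

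Genes that decorate the indole ring were split, with 2 of 8 higher and 2 lower (median log2 change 0.00). Of the 8, 4 had a deposited multiply mapped share above 0.1: CYP81F1 (0.842), CYP81F4 (0.888), IGMT2 (0.230) and IGMT3 (0.229). Their levels and the list median are thus uncertain. With such loci left out, 1 gene was higher and 2 were lower. CYP81F1, CYP81F4 and IGMT3, which were not called, are named after their values were seen. IGMT1 and IGMT4, methyltransferases that act after ring hydroxylation, fell: IGMT1 went from 121 ± 6.44 to 45.9 ± 4.09 RPKM and IGMT4 from 213 ± 24.6 to 124 ± 10.6 (limma adjusted p of 8.26e-06 and 0.000368). IGMT5, a methyltransferase of the other ring position, rose 2.07-fold, from 34.6 ± 3.98 to 71.6 ± 16.0 RPKM (limma adjusted p = 0.00135). IGMT2 rose by 0.53 on the log2 scale, but its deposited multiply mapped share was 0.230, so its level is uncertain.

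Breakdown and transport genes held the largest single changes of the 7 lists. The myrosinases TGG1 and TGG2, which cleave glucosinolates after damage, fell: TGG2 was at 441.87, 552.09 and 502.95 RPKM in wild type against 54.58, 47.70 and 41.76 in cfm6-1 (9.62% of wild type; log2 change -3.35, SE 0.11), and TGG1 fell to 29.9%. TGG4, a root myrosinase, fell to 67.3%. FAMA, a guard cell regulator that also specifies the myrosin cells holding TGG1 and TGG2, was at 13.73, 12.12 and 11.61 RPKM in wild type against 4.51, 4.66 and 5.26 in cfm6-1, 38.5% of wild type; its part in the myrosinase values was not tested. FAMA is one of the shoot markers and is named here after its values were seen. The glucosinolate importers GTR1 and GTR2 rose: GTR1 was at 10.38, 11.26 and 10.80 RPKM in wild type against 51.72, 46.93 and 58.04 in cfm6-1 (4.83-fold; log2 change 2.17, SE 0.08), and GTR2 rose 1.78-fold. PEN2, the myrosinase of the immune branch, was at 110.14, 116.87 and 120.53 RPKM in wild type against 107.00, 98.49 and 123.80 in cfm6-1, with no detected difference (log2 change -0.08, SE 0.09, limma adjusted p = 0.418). PEN3, the transporter that acts with PEN2, was at 305 ± 22.9 and 304 ± 36.7 RPKM (limma adjusted p = 0.929). Over the list of 10, 2 rose and 5 fell, which is 20% and 50% beside 38.6% and 30.2% of all loci tested.

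**Figure D4:**
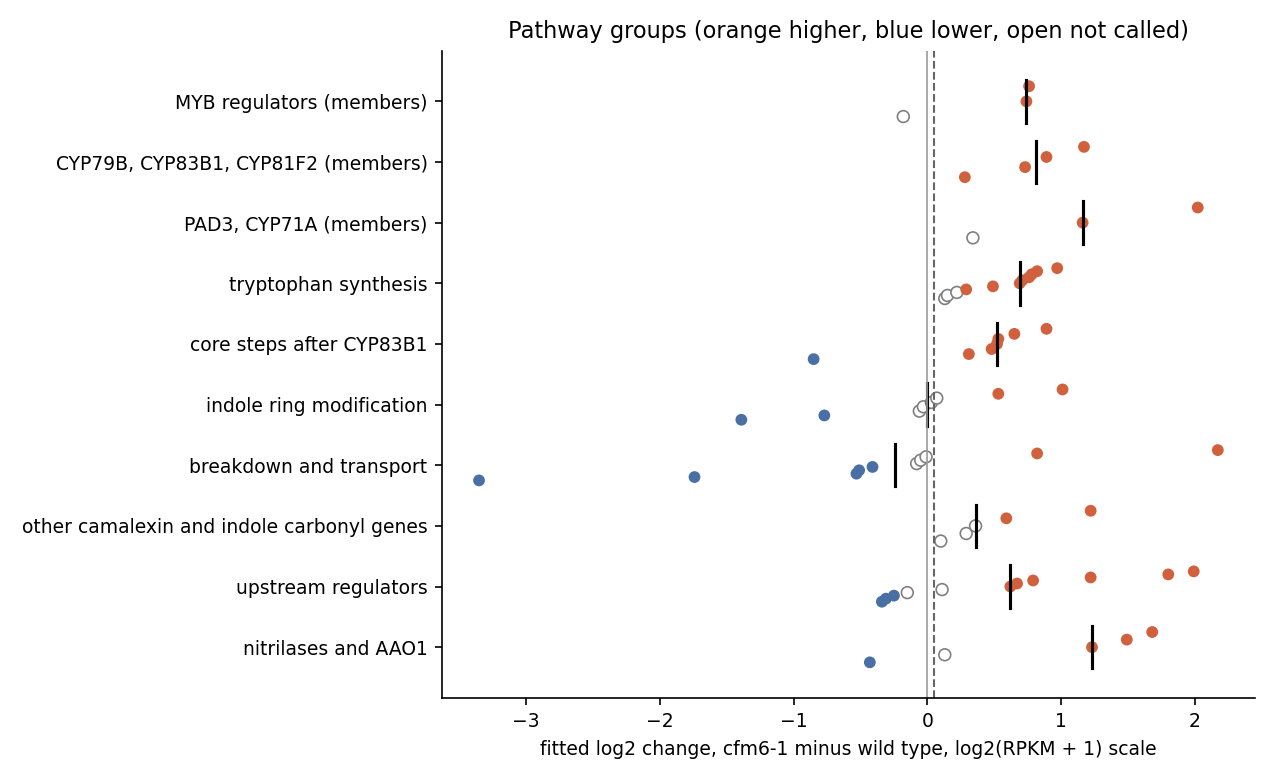
Fitted log2 change, cfm6-1 minus wild type, on the log2(RPKM + 1) scale for every tested gene of the 10 named genes (upper 3 rows) and of the 7 further lists. Orange points were called higher, blue points lower and open points were not called; black bars are list medians and the dashed line is the median of all loci tested (0.05). Tryptophan synthesis holds no blue point, while breakdown and transport runs from -3.35 for TGG2 to 2.17 for GTR1.

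Among 5 testable other genes linked to camalexin and indole carbonyl compounds, 2 rose and none fell (limma; 2 and 0 at an unadjusted p below 0.05 and also with limma-voom). The 2 are 40% of the list, near the 38.6% of all loci called higher. GSTF6, a glutathione transferase of camalexin synthesis, rose from 254 ± 16.1 to 593 ± 49.4 RPKM (2.34-fold, limma adjusted p = 1.88e-05), and CYP71B6, which acts on indole-3-acetonitrile, rose 1.51-fold. In the list of nitrilases and AAO1, NIT1, NIT2 and NIT3, whose enzymes can hydrolyse nitriles such as indole-3-acetonitrile, rose 2.34-fold, 3.17-fold and 2.97-fold. NIT2 was at 115.59, 161.54 and 181.65 RPKM in wild type against 428.11, 524.79 and 500.42 in cfm6-1. NIT4, which acts in cyanide detoxification, went from 12.3 ± 2.20 to 8.88 ± 1.74 RPKM and passed narrowly (limma adjusted p = 0.0495). Its groups overlapped, and the call was lost under 7 of 14 alternatives, among them leaving out wild type replicate 2 (limma adjusted p = 0.139), wild type replicate 3 (0.148), cfm6-1 replicate 1 (0.138) or cfm6-1 replicate 2 (0.0852). NIT4 is named after its value was seen.

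Of 11 upstream regulators, 6 rose and 3 fell, which is 54.5% and 27.3% beside 38.6% and 30.2% of all loci tested. WRKY33, the transcription factor that binds PAD3 and CYP71A13 in pathogen responses, was at 45.60, 61.09 and 60.13 RPKM in wild type against 182.21, 153.08 and 262.17 in cfm6-1 (3.58-fold; log2 change 1.80, SE 0.20, limma adjusted p = 0.000185). MYC2, a jasmonate-activated factor that works with the MYB regulators of glucosinolates, was at 29.55, 36.83 and 35.94 RPKM in wild type against 128.14, 119.30 and 170.38 in cfm6-1 (4.08-fold; log2 change 1.99, SE 0.14). For both factors cfm6-1 replicate 3 was the highest library, as for MYB51, MYB122, CYP81F2 and CYP71A12, while PAD3, CYP71A13, MYB34, CYP79B2 and CYP79B3 were lowest there. Some of these ranks were near ties: PAD3 was at 59.83 RPKM in replicate 3 and 60.92 in replicate 1, and MYB122 at 1.24 and 1.18. The part of either factor in the levels of the 10 genes was not tested. ERF1B and ERF72, ethylene response factors, rose 3.39-fold and 1.73-fold, and OBP2, a DOF factor that activates indole glucosinolate genes, rose 1.64-fold. ERF1B was low, at 0.75, 1.65 and 1.13 RPKM in wild type against 3.58, 4.25 and 4.14 in cfm6-1 (log2 change 1.22, SE 0.15). With wild type replicate 1 below 1 RPKM, ERF1B passed the filter on low values only through cfm6-1, and it counts among the 6 that rose. MYC3 and MYC4, close relatives of MYC2, were at 79.8% and 76.8% of the wild type mean, and the kinase MPK6 was at 83.6%, all called lower (limma adjusted p = 0.00436, 0.00229 and 0.00203); these 3 are named after their values were seen. RefSeq places AT1G32630 on the opposite strand over 3241 of the 3289 bases of MYC2. It was at 6.13 to 7.03 RPKM in wild type against 5.93 to 6.57 in cfm6-1.

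The W-box, the element that WRKY factors bind, was searched as TTGACC or TTGACT on both strands of the 250 bases before each start. CYP81F2 alone among the 10 genes held it, at 194 and 109 bases before the start, and 28.5% of the windows of the tested protein-coding nuclear genes held at least 1. The window of CYP81F2 (TAIR10.1, chr5:23187590-23187839, plus strand) is shown with both matches in capitals, each read here from the other strand.
CYP81F2: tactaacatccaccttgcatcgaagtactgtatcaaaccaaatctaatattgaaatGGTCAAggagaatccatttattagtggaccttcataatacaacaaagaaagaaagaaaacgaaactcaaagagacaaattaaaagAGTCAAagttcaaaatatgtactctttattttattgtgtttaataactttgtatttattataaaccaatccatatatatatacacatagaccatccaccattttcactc
The G-box CACGTG, which MYC factors bind, was in none of the 10 windows and in 7.27% of those of tested genes. Only these exact sequences were searched, so other forms of either element and sites farther from the start were not.

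The authors' deposited table compares libraries under codes that no label ties to these samples, so its values are given only as that table's own and not as a second test of cfm6-1. The authors' deposited table gives 2 of the 10 genes an adjusted p below 0.05: CYP79B2 (log2 fold change 1.13, adjusted p = 0.0109) and PAD3 (log2 fold change 1.13, adjusted p = 0.0162). By that rule 20.1% of the loci tested here were higher and 20% lower in the authors' deposited table. At its unadjusted p the table also lists MYB34, CYP79B3, CYP83B1 and CYP81F2 at 0.05 or less, all marked as up. For CYP71A13 the unadjusted p in the authors' deposited table was 0.0561, and for MYB51 it was 0.0541.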

How the data were processed

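RNA of 6 libraries was read as 100 bp single-end reads, per the labels' protocols, and the submitters' processing notes name build TAIR10; aligner, counter, annotation release and use of strand: not given in the sources used here. The deposited levels are RPKM with 2 decimals, a unit read from the values. Also used were the authors' deposited gene length, a fraction per locus that by its name is the largest multiply mapped share, p-values and log2 fold changes. A further 6 columns and the mapping totals carry codes found in no label, and were not used; the authors' deposited p-values and log2 fold changes compare those coded libraries and are only quoted.

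Depth was the value between 20 and 80 M reads that made RPKM times length closest to whole reads in genes under 0.3 kb (100% of 336 to 376 values within 0.1); rebuilt reads summed to 44.1 to 49.2 M. Replicates differed beyond counting noise (chi-square 10.5 to 25.1 per degree of freedom). Each library was taken as 1 replicate. The labels call them biological replicates and do not say whether they are separate plantings. The p-values measure the spread between these libraries.

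limma 3.58.1 in R 4.3.3 was fitted to log2(RPKM + 1) with a mean-variance trend and genotype as the single factor. The fit covered the 20047 loci that reached 1 RPKM in 3 or more libraries, and was tested on simulated data. The simulation changed only a small share of the loci, so it does not test the fit where 68.8% are called. The pseudocount of 1 understates changes of low genes. Folds are ratios of mean RPKM. Sequences came from RefSeq TAIR10.1 by locus tag, which matched all 10 genes (alignment with Biopython 1.88); 21.5% of protein-coding loci had a deposited length equal to a RefSeq transcript, so gene models differ.

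The members and lists were chosen with earlier results of these data known. Named genes were the 10 members, up to 5 per list that passed without overlap in order of size, and WRKY33, MYC2, PEN2, PEN3 and CFM6; others are marked. Alternatives were another pseudocount, other filters and scalings, a replicate block, loci with shared reads left out, limma-voom on rebuilt reads and each library left out.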

Additional observations from a re-analysis of the deposited data

How the results depend on the processing

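Under all 14 alternative settings of the fit, 8 of the 10 genes were called higher, or 9 without cfm6-1 replicate 1, which adds CYP71A12, and none was called lower. With the filter at 10 RPKM only 9 were tested, since MYB122 did not reach it, and CYP71A13 reached it only through cfm6-1. Of 139 values of single members, 138 kept their direction and side of the threshold. CYP71A13 ranged from 1.75 to 2.33 on the log2 scale and MYB122 from -0.32 to -0.12. Other pathway genes gave 26 to 30 higher calls and 10 to 13 lower. With a filter at 10 RPKM, which tests fewer loci, 4812 of all loci were higher and 3696 lower, rather than 7736 and 6063. Median-of-ratios scaling and quantile normalization shifted the median of all loci by -0.05 and -0.07. All loci then gave 6933 higher and 6873 lower calls with the first and 6562 and 7248 with the second, so the excess of higher calls in the background depends on the scaling. With each library left out in turn, the difference in log2 ratio of MYB51 to MYB34 ran from -0.35 to 0.14 and changed sign, as its replicates overlap; that of CYP71A13 to CYP71A12 ran from 1.57 to 2.34. Deviations of same-numbered libraries were little related across genes (r = 0.032, -0.138 and -0.002). Such values cannot show whether these libraries share a planting or day, which the labels do not say. With a replicate block 8 of the 10 genes were higher, and 7423 and 5832 of all loci higher and lower. The block lowered the SE of each member other than MYB122, for example from 0.15 to 0.06 for MYB34, and left MYB122 at 0.09. Reads behind a member ran from 234 (MYB122 in cfm6-1) to 75780 (CYP83B1 in cfm6-1) per genotype; by the spread between libraries CYP71A13 was the least precise (SE 0.28, against 0.09 for MYB122).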
